A study of Capra hircus with 6 samples.

Results

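Transcripts of glucose and lactate transporters, glycolytic enzymes, glycogen enzymes and the pyruvate dehydrogenase complex were followed in mesenchymal stem cells from the fat tissue of the goat, Capra hircus. These are stromal cells that can be turned into fat cells. The genes were taken by symbol from a list of 38, and 37 of them had a row among the 16262 gene symbols of the FPKM tables. LDHA was not analysed here. One group held 3 libraries of cells that overexpress TAZ, the transcriptional coactivator encoded by WWTR1, and the other held 3 control libraries of wild-type genotype. Cells of both groups are labelled as under adipogenic differentiation, and the series calls the overexpressing cells a cell line. The labels name no construct, promoter, control vector, clone, animal or day of differentiation, and although the title speaks of TNF-α no sample label names a cytokine. The study asked how TAZ acts on the formation of fat cells.

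Glycolysis turns glucose into pyruvate in the cytosol. Glucose enters through facilitative carriers of the SLC2A family, is trapped by hexokinase, is committed to breakdown by phosphofructokinase and leaves the pathway as pyruvate. Lactate dehydrogenase interconverts pyruvate and lactate, and lactate crosses the plasma membrane through carriers of the SLC16A family. Pyruvate that enters mitochondria is oxidised by the pyruvate dehydrogenase complex, which the PDK kinases switch off by phosphorylation. Most steps have several isozymes, each from its own gene, that differ by tissue and by regulation. In fat tissue, glucose carbon supplies glycerol phosphate and acetyl groups for fat, and a side route through glucose phosphates stores it as glycogen.

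An FPKM value counts fragments per kilobase of gene and relative to the library total, so levels of different genes can be set side by side. Library totals, read from the step size among low values, were 17035481 to 18852822 fragments in the TAZ libraries and 16935698 to 17483995 in the control libraries. At the median gene length, 1 FPKM stood for 51.3 fragments. WWTR1 stood at 84.6, 118.1 and 84.2 FPKM in the TAZ libraries and at 30.2, 29.9 and 35.9 FPKM in the control libraries, which is 2.99 times as high with no overlap (log2 difference 1.54, SE 0.126, limma adjusted p = 6.91e-07). All 9 stromal markers examined, among them COL1A1, COL1A2, PDGFRA and THY1, were above 1 FPKM in every library. With TAZ overexpression 2 of them were higher (PDGFRB and CD44) and 3 lower (THY1, ENG and VIM). Over all tested genes, 15.7% were higher and 22.1% lower. Of the adipocyte markers PPARG, ADIPOQ, PLIN1, LPL and CIDEC, 4 of 5 stayed under 1 FPKM in every library, and CIDEC averaged 17.8 FPKM in the TAZ libraries and 18.3 FPKM in the control libraries. The 4 endothelial markers, the 4 epithelial markers and the 2 skeletal muscle markers with a row (CKM and ACTA1) stayed under 1 FPKM in every library. The summed leukocyte markers ranged from 26.6 to 27.7 FPKM in the TAZ libraries and from 13.4 to 16.4 FPKM in the control libraries, most of it from CD14. The other leukocyte markers did not rise with CD14. CD68 was lower, at 2.86 FPKM in the TAZ libraries and 4.53 FPKM in the control libraries (limma adjusted p = 0.00185). CD3E, under 1 FPKM in every library, averaged 0.0769 FPKM in the TAZ libraries and 0.598 FPKM in the control libraries. PTPRC, which marks all leukocytes, was listed at 0 in every library. The summed pericyte and smooth muscle markers ranged from 151 to 227 FPKM in the TAZ libraries and from 334 to 559 FPKM in the control libraries, with RGS5, MCAM and MYH11 under 1 FPKM and nearly all of the sum from ACTA2. The part of these markers in the results below was not tested.

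More of the listed genes were higher than lower with TAZ overexpression. Of 36 that reached 1 FPKM in at least 3 libraries and were tested, 17 were higher, 5 were lower and 14 did not pass at an adjusted p under 0.05 (limma on log2(FPKM + 1), two-sided, Benjamini-Hochberg adjustment over all 10750 tested genes). Those 17 are 47.2% of the tested genes of the list, against 15.7% higher among all tested genes, and the 5 are 13.9%, against 22.1% lower among all tested genes. With median-ratio scaling, which turned the balance over all genes to 2001 higher and 1821 lower in place of 1693 and 2381, 18 genes of the list were higher and 5 lower. The median log2 difference of the list was 0.22, against -0.05 over all tested genes. Changes of at least 2-fold were found for SLC2A3, SLC16A3, SLC2A1 and HK2, all higher, which is 11.1% of the list against 3.53% of all tested genes. No listed gene was at least 2-fold lower, where 0.995% of all tested genes were. The groups were fully separate for 20 genes that were higher in the TAZ libraries, or 55.6% against 19.7% of all tested genes, and for 7 that were lower, or 19.4% against 28.7%. The genes were listed with earlier results of these data known, so the counts are given beside those over all genes and carry no test of their own. In bulk RNA, fewer cells that express a gene and less RNA per cell cannot be told apart. The labels do not say whether the replicates are separate cultures, and the spread behind each p-value may therefore be technical.

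**Figure D1:**
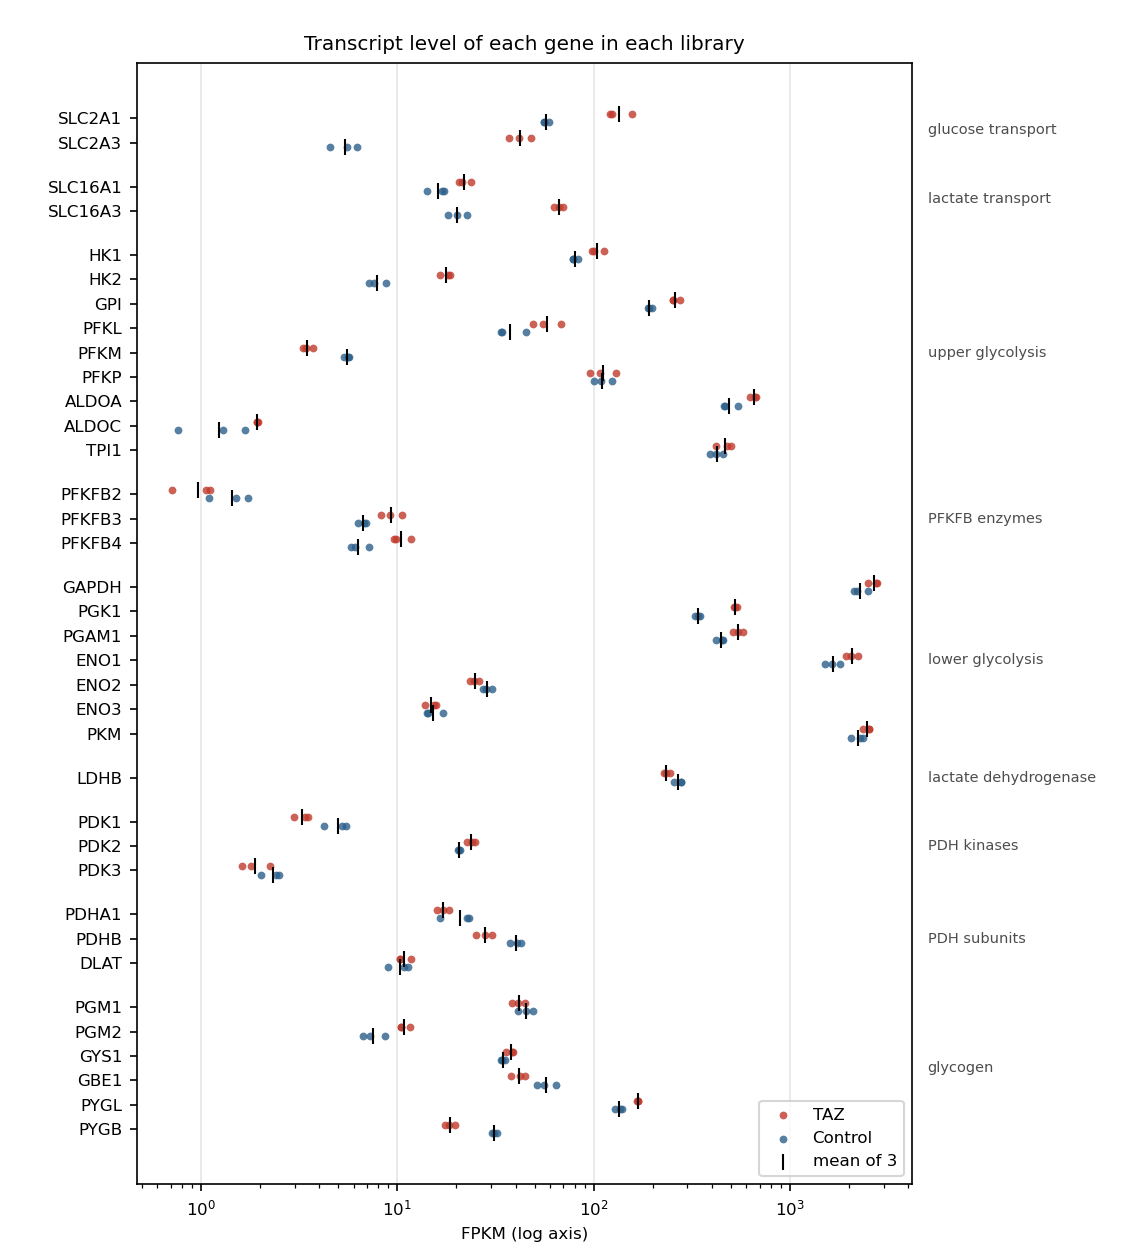
FPKM on a log axis for 36 genes (rows, grouped by step) in each TAZ library (red, upper points of a row) and each Control library (blue, lower points), with black bars for the means of 3. The transporters SLC2A1, SLC2A3 and SLC16A3 and the hexokinase HK2 show the widest gaps between groups, and GAPDH, PKM and ENO1 lie at the top of the scale with groups close together; PDK4, near 0, is left out.

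Both glucose transporter genes were higher in the TAZ libraries, and the less abundant of them had the larger ratio. SLC2A1, which encodes GLUT1, the carrier of basal glucose uptake in most cells, stood at 123.7, 157.3 and 120.9 FPKM in TAZ replicates 1, 2 and 3 and at 59.4, 55.7 and 55.65 FPKM in control replicates 1, 2 and 3. Every TAZ library lay at more than 2 times the level of any control library, and the ratio of means was 2.35 (log2 difference 1.21, SE 0.102, limma adjusted p = 8.89e-07). SLC2A3, which encodes GLUT3, a carrier known for its high affinity for glucose and its role in neurons, stood at 47.7, 41.5 and 37.3 FPKM in the TAZ libraries and at 6.26, 4.53 and 5.53 FPKM in the control libraries. Its ratio of means was 7.75 (log2 difference 2.75, SE 0.118, limma adjusted p = 8.81e-10), from 3391.5 fragments in the TAZ libraries and 418.5 in the control libraries. SLC2A1 remained the higher of the pair per length in every library. SLC2A3 made up 24.1% ± 3.51 of their summed FPKM in the TAZ libraries and 8.70% ± 1.04 in the control libraries (SD, n = 3 each). The shares did not overlap, and the exact two-sided permutation p was 0.1, the smallest that 3 libraries against 3 can give. Their summed level was 176 ± 20.7 FPKM in the TAZ libraries and 62.4 ± 2.93 FPKM in the control libraries, a ratio of 2.83.

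Both lactate transporter genes were higher as well. SLC16A3, which encodes MCT4, the carrier known for lactate export from glycolytic cells, stood at 63.0, 70.2 and 66.25 FPKM in the TAZ libraries and at 22.6, 20.05 and 18.1 FPKM in the control libraries. It was 3.28 times as high by the means (log2 difference 1.67, SE 0.0953, limma adjusted p = 1.7e-08). SLC16A1, which encodes MCT1, a carrier that moves lactate and pyruvate in either direction, stood at 23.8, 21.4 and 20.65 FPKM in the TAZ libraries and at 16.95, 14.2 and 17.4 FPKM in the control libraries. Its groups also did not overlap, and the ratio of means was 1.36 (log2 difference 0.42, SE 0.0999, limma adjusted p = 0.00493). SLC16A3 made up 72.6%, 76.6% and 76.2% of the summed FPKM of the pair in the TAZ libraries and 57.2%, 58.6% and 51.0% in the control libraries. It was the more abundant of the pair in all 6 libraries, and its shares did not overlap between groups (exact permutation p = 0.1, the smallest possible).

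Hexokinase, which phosphorylates glucose, was higher for both isozymes. HK2, the isozyme typical of insulin-sensitive tissue and of many tumours, stood at 18.5, 18.15 and 16.5 FPKM in the TAZ libraries and at 7.17, 7.63 and 8.73 FPKM in the control libraries, a ratio of 2.26 (log2 difference 1.08, SE 0.0981, limma adjusted p = 1.8e-06). HK1, the isozyme found in nearly all cells, stood at 97.7, 112.6 and 100.4 FPKM in the TAZ libraries and at 83.4, 78.05 and 78.6 FPKM in the control libraries, a ratio of 1.29 (log2 difference 0.37, SE 0.084, limma adjusted p = 0.00411). HK1 supplied most of the hexokinase transcripts in both groups, and the share of HK2 was 14.65% ± 1.13 in the TAZ libraries and 8.94% ± 1.04 in the control libraries. GPI, which isomerises glucose phosphate to fructose phosphate, stood at 254.7, 276.1 and 252.7 FPKM in the TAZ libraries and at 197.2, 190.9 and 188.8 FPKM in the control libraries. Its groups were well apart relative to their spread, with a ratio of 1.36 (log2 difference 0.44, SE 0.078, limma adjusted p = 0.000697).

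The phosphofructokinase isozymes, which catalyse the committed step, went in different directions. PFKL, the liver-type subunit, stood at 49.1, 68.5 and 54.9 FPKM in the TAZ libraries and at 45.4, 33.7 and 34.0 FPKM in the control libraries, and rose 1.53-fold (limma adjusted p = 0.00337). PFKM, the muscle-type subunit and the lowest of the family, stood at 3.29, 3.71 and 3.44 FPKM in the TAZ libraries and at 5.63, 5.36 and 5.67 FPKM in the control libraries. It fell to 0.627 times the control level (log2 difference -0.55, SE 0.0933, limma adjusted p = 0.000487). PFKP, the platelet-type subunit and the most abundant one, stood at 95.8, 130.0 and 107.8 FPKM in the TAZ libraries and at 123.3, 108.5 and 100.8 FPKM in the control libraries. The groups of PFKP overlapped throughout, and it did not pass (adjusted p = 0.988, 95% confidence interval of the log2 difference -0.25 to 0.24); the sign of its difference turned with median-ratio scaling, quantile normalization and voom. PFKL made up 33.4% ± 0.455 of the summed FPKM of the family in the TAZ libraries and 24.35% ± 1.60 in the control libraries, and PFKP made up 64.6% ± 0.301 in the TAZ libraries and 72.0% ± 1.41 in the control libraries. The share of PFKM was 2.04% ± 0.193 in the TAZ libraries and 3.63% ± 0.401 in the control libraries. The recovered length of PFKL was only 353 bases, from 1109.5 fragments in the TAZ libraries and 689 in the control libraries, so its level relative to the other subunits rests on a short gene model.

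Aldolase and triosephosphate isomerase close the upper part of the pathway. ALDOA, the main aldolase, stood at 628.9, 663.7 and 670.0 FPKM in the TAZ libraries and at 464.7, 546.2 and 458.8 FPKM in the control libraries, a ratio of 1.34 (log2 difference 0.42, SE 0.0888, limma adjusted p = 0.00239). ALDOC, the brain-type aldolase, was far lower at 1.94, 1.95 and 1.92 FPKM in the TAZ libraries and 0.765, 1.67 and 1.29 FPKM in the control libraries. It passed at an adjusted p of 0.027, but the call was lost without TAZ replicate 2 (0.061), without control replicate 1 (0.12), with no filter on low values (0.092) and with quantile normalization (0.0522), and its adjusted p ran from 0.00478 to 0.12 over all settings. TPI1, triosephosphate isomerase, overlapped between groups at 466 ± 40.9 FPKM in the TAZ libraries and 423 ± 32.9 FPKM in the control libraries and did not pass (adjusted p = 0.263, 95% confidence interval of the log2 difference -0.06 to 0.34).

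The PFKFB enzymes make and break the fructose bisphosphate that activates phosphofructokinase, and the members differed. PFKFB4 stood at 9.65, 11.8 and 9.85 FPKM in the TAZ libraries and at 7.13, 6.08 and 5.78 FPKM in the control libraries, a ratio of 1.65 (log2 difference 0.64, SE 0.108, limma adjusted p = 0.000469). PFKFB3, whose enzyme is known for its strong bias towards making the activator, stood at 9.14, 10.6 and 8.26 FPKM in the TAZ libraries and at 6.91, 6.78 and 6.27 FPKM in the control libraries, a ratio of 1.40 (limma adjusted p = 0.00582). Neither gene overlapped between groups. PFKFB2, the heart-type isozyme, stood near the filter at 1.06, 1.11 and 0.712 FPKM in the TAZ libraries and 1.51, 1.10 and 1.73 FPKM in the control libraries, and did not pass (adjusted p = 0.056). It passed as lower with quantile normalization, with voom, with the replicate number as a block (0.043) or without control replicate 2. Its adjusted p ranged from 0.0196 to 0.21. PFKFB4 was 50.4% ± 1.86 of the summed FPKM of the 3 genes in the TAZ libraries and 43.8% ± 1.98 in the control libraries, PFKFB2 was 4.62% ± 0.79 in the TAZ libraries and 10.04% ± 2.37 in the control libraries, and PFKFB3 was 45.0% ± 1.07 in the TAZ libraries and 46.2% ± 2.15 in the control libraries.

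**Figure D2:**
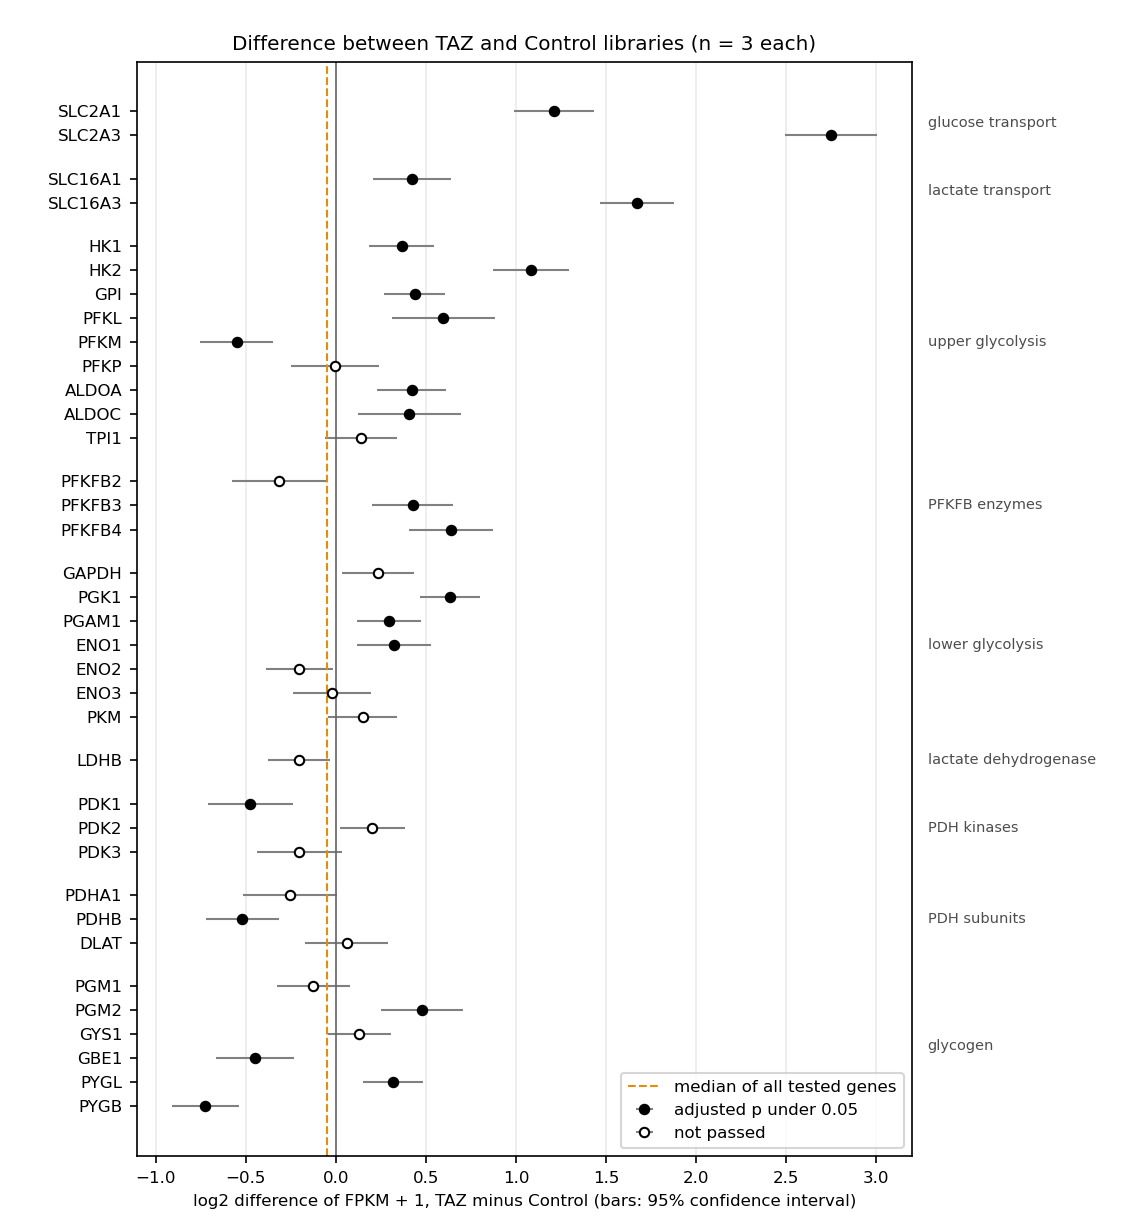
Log2 difference of FPKM + 1, TAZ minus Control, for the 36 tested genes (rows, grouped by step), with 95% confidence intervals; filled points passed at an adjusted p under 0.05, and the dashed line is the median of all tested genes at -0.05. SLC2A3, SLC16A3, SLC2A1 and HK2 lie furthest right, at 1.08 to 2.75, while SLC16A1 lies at 0.42. The 7 enzymes of lower glycolysis lie between -0.20 and 0.63. PFKM, PDK1, PDHB, GBE1 and PYGB are the filled points below 0, and the other points below 0 are open.

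The enzymes of the lower, energy-yielding part held GAPDH, PKM and ENO1, the 3 most abundant genes of the list, and 3 of its 7 genes were higher and 0 lower by limma (1 lower, ENO2, at an unadjusted p under 0.05, and 0 with voom), where all tested genes gave 15.7% higher and 22.1% lower. PGK1, phosphoglycerate kinase, had the largest ratio among them and stood at 521.8, 539.8 and 521.6 FPKM in the TAZ libraries and at 349.6, 329.3 and 341.2 FPKM in the control libraries. Its groups were narrow and far apart, with a ratio of 1.55 (log2 difference 0.63, SE 0.0763, limma adjusted p = 2.69e-05). PGAM1, phosphoglycerate mutase, stood at 512.3, 575.5 and 544.1 FPKM in the TAZ libraries and at 451.3, 457.0 and 421.4 FPKM in the control libraries, a ratio of 1.23 (limma adjusted p = 0.0129). Its call was lost without TAZ replicate 2 (0.0609) and with the replicate number as a block (0.052), over a range of 0.00315 to 0.0609. GAPDH, glyceraldehyde phosphate dehydrogenase, stood at 2500, 2728 and 2768 FPKM in the TAZ libraries and at 2194, 2493 and 2118 FPKM in the control libraries. The GAPDH groups were separated by the narrow gap between 2500 and 2493 FPKM, and the gene did not pass (ratio 1.18, adjusted p = 0.0616, range 0.014 to 0.205 over all settings). It passed as higher without control replicate 2, with quantile normalization and with voom. PKM, pyruvate kinase of most tissues, stood at 2346, 2534 and 2525 FPKM in the TAZ libraries and at 2362, 2266 and 2054 FPKM in the control libraries, overlapped, and did not pass (ratio 1.11, adjusted p = 0.202, 95% confidence interval of the log2 difference -0.04 to 0.34). The PKM row cannot separate the splice forms of the gene.

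Of the enolases, which make phosphoenolpyruvate, only ENO1 passed. ENO1, the ubiquitous isozyme, stood at 1928, 2225 and 2043 FPKM in the TAZ libraries and at 1802, 1640 and 1517 FPKM in the control libraries, a ratio of 1.25 (limma adjusted p = 0.0164). The call was lost without TAZ replicate 2 (0.0857), without control replicate 3 (0.0566) and with no filter on low values (0.0876), over a range of 0.00505 to 0.0876. ENO2, the neuronal isozyme, stood at 23.5, 24.65 and 26.2 FPKM in the TAZ libraries and at 30.3, 27.3 and 28.4 FPKM in the control libraries, with no overlap and an adjusted p of 0.0792. ENO3, the muscle isozyme, averaged 14.9 ± 1.01 FPKM in the TAZ libraries and 15.2 ± 1.64 FPKM in the control libraries with overlap (adjusted p = 0.891), and its sign turned with median-ratio scaling and voom. ENO1 made up 98.1% ± 0.122 of enolase FPKM in the TAZ libraries and 97.4% ± 0.124 in the control libraries, a difference of 0.701 percentage points with no overlap.

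The summed FPKM of the 17 glycolytic enzymes from hexokinase to lactate dehydrogenase was 9642, 10649 and 10375 in the TAZ libraries and 8811, 8933 and 8038 in the control libraries. The sum averaged 10222 ± 520 FPKM in the TAZ libraries and 8594 ± 485 FPKM in the control libraries, a ratio of 1.19 with no overlap (exact two-sided permutation p = 0.1, the smallest possible). It made up 2.25% to 2.42% of the FPKM of the whole table in the TAZ libraries and 1.84% to 1.96% in the control libraries. GAPDH, ENO1 and PKM alone gave 7199 ± 376 FPKM of the sum in the TAZ libraries and 6148 ± 399 FPKM in the control libraries. The corresponding ratio of summed FPKM was 2.83 for the glucose transporters and 2.43 for the lactate transporters, and the difference between these ratios and that of the enzymes was not tested. Among the 11 genes of the list at 100 FPKM or more in the control libraries, 6 were higher, 0 were lower and 5 did not pass by limma (1 lower, LDHB, at an unadjusted p under 0.05, and 0 with voom), with log2 differences from -0.20 to 0.63. Among the 15 at 10 to 100 FPKM in the control libraries, 5 were higher and 3 lower, with log2 differences from -0.725 to 1.67. Among the 10 under 10 FPKM there, 6 were higher and 2 lower. Their log2 differences ran from -0.55 to 2.75 on a scale that understates the change of low genes. Levels were taken from the control libraries alone, which are part of the comparison, so these counts cannot show whether change depends on level. All of them stand beside 15.7% higher and 22.1% lower over all tested genes, at whatever level.

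LDHB, the lactate dehydrogenase subunit typical of heart, stood at 227.1, 232.6 and 243.9 FPKM in the TAZ libraries and at 256.4, 277.4 and 277.1 FPKM in the control libraries. All TAZ libraries were below all control libraries, at a ratio of 0.868, but the difference did not pass (log2 difference -0.20, SE 0.0787, limma adjusted p = 0.0576). No setting tried brought it past the threshold, over a range of 0.0537 to 0.199. The share of the other subunit was not computed, since LDHA was not analysed here.

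Among the listed kinases and subunits of the pyruvate dehydrogenase complex, PDK1 and PDHB were lower and the other 4 tested genes did not pass. Over all tested genes, 15.7% were higher and 22.1% lower. The subunit gene PDHX, from the related lists, was higher, close to the threshold (limma adjusted p = 0.0475), and is given with them. Its call was not followed under the alternative settings. PDK1, a kinase that inactivates pyruvate dehydrogenase, stood at 3.49, 2.97 and 3.40 FPKM in the TAZ libraries and at 4.22, 5.47 and 5.24 FPKM in the control libraries. It fell to 0.660 times the control level (log2 difference -0.48, SE 0.109, limma adjusted p = 0.00402). PDK2, the most abundant of these kinases here, stood at 24.0, 22.75 and 24.7 FPKM in the TAZ libraries and at 20.8, 20.4 and 20.5 FPKM in the control libraries, with no overlap, and did not pass (ratio 1.16, adjusted p = 0.0691). PDK2 did pass as higher with no filter, median-ratio scaling, quantile normalization or voom, over a range of 0.0297 to 0.229. PDK3 overlapped at 1.89 ± 0.317 FPKM in the TAZ libraries and 2.32 ± 0.258 FPKM in the control libraries (adjusted p = 0.164). PDK4, a kinase known to be induced in fasting, was near 0, with 6 fragments in all in the TAZ libraries and 7 in the control libraries. TAZ replicate 3 had 0 fragments of PDK4, which allows up to 0.0205 FPKM at 3 fragments, and a difference was not detectable at this depth. PDK2 made up 82.2% ± 1.30 of the summed kinase FPKM in the TAZ libraries and 73.8% ± 1.52 in the control libraries, and PDK1 made up 11.3% ± 0.439 in the TAZ libraries and 17.8% ± 2.23 in the control libraries. The summed kinase level itself overlapped, at 29.0 ± 1.45 FPKM in the TAZ libraries and 27.9 ± 0.323 FPKM in the control libraries (exact permutation p = 0.4).

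PDHB, the beta subunit of the enzyme that decarboxylates pyruvate, stood at 30.4, 25.2 and 27.9 FPKM in the TAZ libraries and at 37.4, 42.7 and 40.8 FPKM in the control libraries. It fell to 0.692 times the control level, with every TAZ library below every control library (log2 difference -0.52, SE 0.0937, limma adjusted p = 0.000793). PDHA1, the alpha subunit that the kinases phosphorylate, stood at 18.3, 17.1 and 15.95 FPKM in the TAZ libraries and at 22.7, 16.5 and 23.1 FPKM in the control libraries. Control replicate 2 lay among the TAZ libraries, and the gene did not pass (adjusted p = 0.118) except without that library (0.00937), over a range of 0.00937 to 0.32. DLAT, the acetyltransferase core of the complex, overlapped at 10.8 ± 0.883 FPKM in the TAZ libraries and 10.3 ± 1.26 FPKM in the control libraries (adjusted p = 0.695, 95% confidence interval of the log2 difference -0.17 to 0.29).

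**Figure D3:**
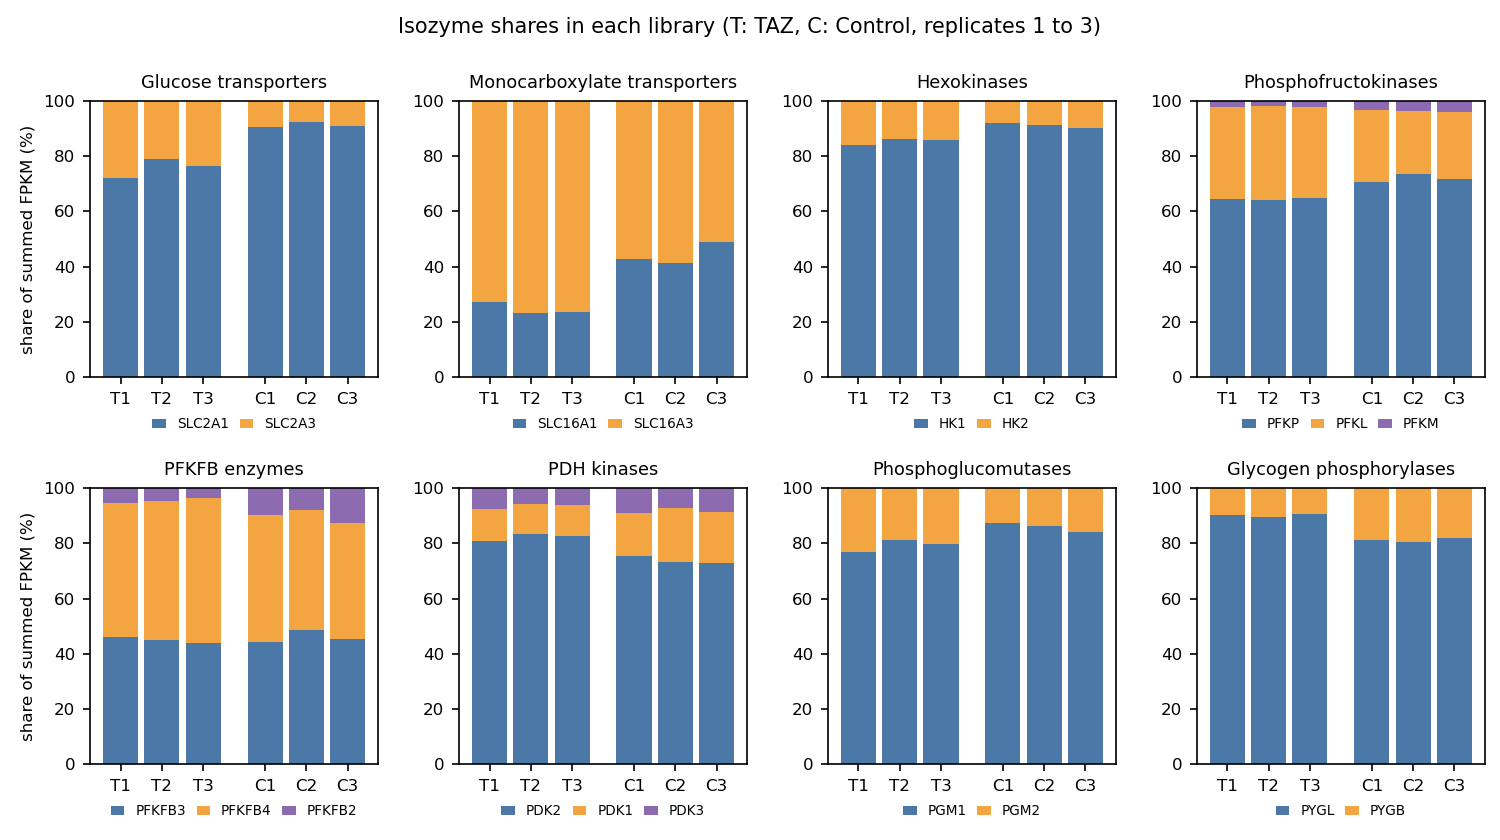
Share of each isozyme in the summed FPKM of its step (stacked bars, percent) in TAZ replicates 1 to 3 (T1 to T3) and Control replicates 1 to 3 (C1 to C3), for 8 steps; PDK4, under 1% everywhere, is left out of its panel. SLC2A3, SLC16A3, HK2, PFKL, PFKFB4, PDK2, PGM2 and PYGL take a larger share in every TAZ library than in any Control library.

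The glycogen phosphorylase isozymes went in opposite directions, and the other glycogen genes were mixed. PYGB, the brain-type glycogen phosphorylase, stood at 18.4, 19.75 and 17.5 FPKM in the TAZ libraries and at 32.2, 31.1 and 30.4 FPKM in the control libraries. It was the listed gene that fell most, to 0.593 times the control level (log2 difference -0.72, SE 0.0852, limma adjusted p = 2.16e-05). PYGL, the liver-type phosphorylase, stood at 165.9, 169.2 and 168.8 FPKM in the TAZ libraries and at 139.5, 128.3 and 135.9 FPKM in the control libraries, and rose 1.25-fold (log2 difference 0.32, SE 0.0767, limma adjusted p = 0.00553). PYGL made up 90.1% ± 0.54 of phosphorylase FPKM in the TAZ libraries and 81.15% ± 0.624 in the control libraries. GBE1, the branching enzyme, stood at 44.6, 38.1 and 42.0 FPKM in the TAZ libraries and at 55.7, 51.3 and 64.5 FPKM in the control libraries, and fell to 0.727 times the control level (limma adjusted p = 0.00334). GYS1, glycogen synthase of muscle and most tissues, did not overlap at 37.7 ± 1.75 FPKM in the TAZ libraries and 34.4 ± 0.904 FPKM in the control libraries but did not pass (adjusted p = 0.231). PGM2, of the phosphoglucomutase family, stood at 11.6, 10.4 and 10.4 FPKM in the TAZ libraries and at 7.25, 6.685 and 8.63 FPKM in the control libraries, and rose 1.44-fold (limma adjusted p = 0.00323). PGM1, the main phosphoglucomutase that links glycogen to glycolysis, overlapped at 41.5 ± 3.24 FPKM in the TAZ libraries and 45.4 ± 4.03 FPKM in the control libraries (adjusted p = 0.321). PGM2 was 20.75% ± 2.24 of the pair in the TAZ libraries and 14.2% ± 1.60 in the control libraries.

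In all, 19 isozyme shares were compared, and 15 did not overlap between groups. Shares of the same step are taken of the same sum, so the 15 partly restate one another. The shares of PFKP and ENO3 separated although their levels overlapped. For levels of single genes, the groups were fully separate for 19.7% (higher) and 28.7% (lower) of all tested genes. No such figure was computed for shares. Each of those 15 reached the smallest exact permutation p of 0.1, which was 0.127 after Benjamini-Hochberg adjustment over the 19 shares, so none passed a threshold of 0.05 in a design of this size. The largest shifts in percentage points were 19.55 for SLC16A3 and 15.4 for SLC2A3, followed by 9.01 for PFKL, 8.92 for PYGL and 8.37 for PDK2. The shares that overlapped were those of PFKFB3, ALDOC, PDK3 and PDK4.

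Within each group, 1 library often held the highest value. TAZ replicate 2, the library with the most WWTR1, had the highest value of its group for 20 of the 36 tested genes, against 10 for TAZ replicate 1 and 6 for TAZ replicate 3. Control replicate 1 had the highest value of its group for 20 of the 36, and control replicates 2 and 3 for 8 each. In the control group, replicate 3 had the most WWTR1, at 35.9 FPKM. TAZ replicate 2 and control replicate 1 also had the largest library totals of their groups, at 18852822 and 17483995 fragments. These counts were not made over all tested genes, so they show no trait of the list. A link to WWTR1 or to depth was not tested. Without TAZ replicate 2, 14 genes of the list were higher and 5 lower in place of 17 and 5. The counts over all tested genes fell as well, to 1512 higher and 1946 lower in place of 1693 and 2381.

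Genes next to the pathway, taken from lists that held none of the genes above, gave a mixed picture. For scale, 15.7% of all tested genes were higher and 22.1% lower, and a list with shares near these does not stand out by its counts. Among 8 tested genes of the list of further carriers (SLC2A and SLC16A genes, the inositol carrier gene SLC5A3 and the chaperone gene BSG), 2 were higher, 0 lower and 6 did not pass by limma (1 lower, SLC2A10, at an unadjusted p under 0.05, and 0 with voom). SLC2A6, a further glucose carrier gene, stood at 11.4 ± 1.06 FPKM in the TAZ libraries and 2.28 ± 0.317 FPKM in the control libraries, a ratio of 4.98 (log2 difference 1.92, SE 0.108, limma adjusted p = 1.54e-08). SLC16A6 was 1.52 times as high. SLC2A4, the insulin-responsive carrier of mature fat cells, was near 0 at 0.0613 ± 0.0421 FPKM in the TAZ libraries and 0.0315 ± 0.0272 FPKM in the control libraries.

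Of 8 tested further isozymes and regulators, 3 were higher and 2 lower. Over all tested genes 15.7% were higher and 22.1% lower, which is also the scale for the lists that follow. TXNIP, an arrestin-like protein that restrains glucose uptake, stood at 34.2 ± 0.747 FPKM in the TAZ libraries and 12.1 ± 2.18 FPKM in the control libraries (ratio 2.83, log2 difference 1.44, SE 0.112, limma adjusted p = 3.99e-07), and its paralog ARRDC4 was 1.57 times as high. BPGM, bisphosphoglycerate mutase, fell to 0.401 times the control level (log2 difference -1.14, SE 0.109, limma adjusted p = 3.41e-06). Among 6 tested pentose phosphate genes 2 were higher and 2 lower. PGD and TKT were 1.31 and 1.27 times as high, and PRPS2, which makes the ribose donor of nucleotides, fell to 0.731 times the control level. Of 7 genes of mitochondrial pyruvate entry, 1 was higher and 0 lower by limma (also 0 at an unadjusted p under 0.05 and with voom), the structural subunit gene PDHX at a ratio of 1.22 (limma adjusted p = 0.0475), while the pyruvate carrier genes MPC1 and MPC2 did not pass (adjusted p = 0.0735 and 0.116).

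Glycogen regulation held 18 tested genes, of which 3 were higher and 3 lower, counts near the 15.7% and 22.1% over all tested genes. The glycogen-targeting subunits of protein phosphatase parted, with PPP1R3C at 6.85 ± 0.0605 FPKM in the TAZ libraries and 3.61 ± 0.235 FPKM in the control libraries (limma adjusted p = 2.65e-05), and PPP1R3B at 7.28 ± 0.0927 FPKM in the TAZ libraries and 12.9 ± 0.886 FPKM in the control libraries (limma adjusted p = 3.14e-05). The PPP1R3C row rests on a recovered length of 439 bases, with 163.5 fragments in the TAZ libraries and 82 in the control libraries. With so few fragments its small SD may understate the counting error. UGP2, which makes the UDP-glucose that glycogen synthase uses, was 1.49 times as high. In the hexosamine and serine branches, 0 of 9 were higher by limma and 4 were lower, beside 15.7% higher and 22.1% lower over all tested genes, while GFPT2 was higher at an unadjusted p under 0.05 and 1 gene was higher with voom. PSAT1 and PSPH, enzymes of serine synthesis, fell to 0.468 and 0.616 times the control level, and PGM3, of the hexosamine route, to 0.752 times. GPD2, the mitochondrial glycerol phosphate dehydrogenase, stood at 6.82 ± 0.564 FPKM in the TAZ libraries and 2.82 ± 0.511 FPKM in the control libraries (ratio 2.42, limma adjusted p = 1.11e-05), the 1 gene of 9 in its shuttle list that was higher, where 4 were lower, among them MDH2 at 0.815 times and SLC25A11 at 0.797 times the control level. Of 2 tested gluconeogenic genes, G6PC3 was higher at a ratio of 1.21 (limma adjusted p = 0.026).

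**Figure D4:**
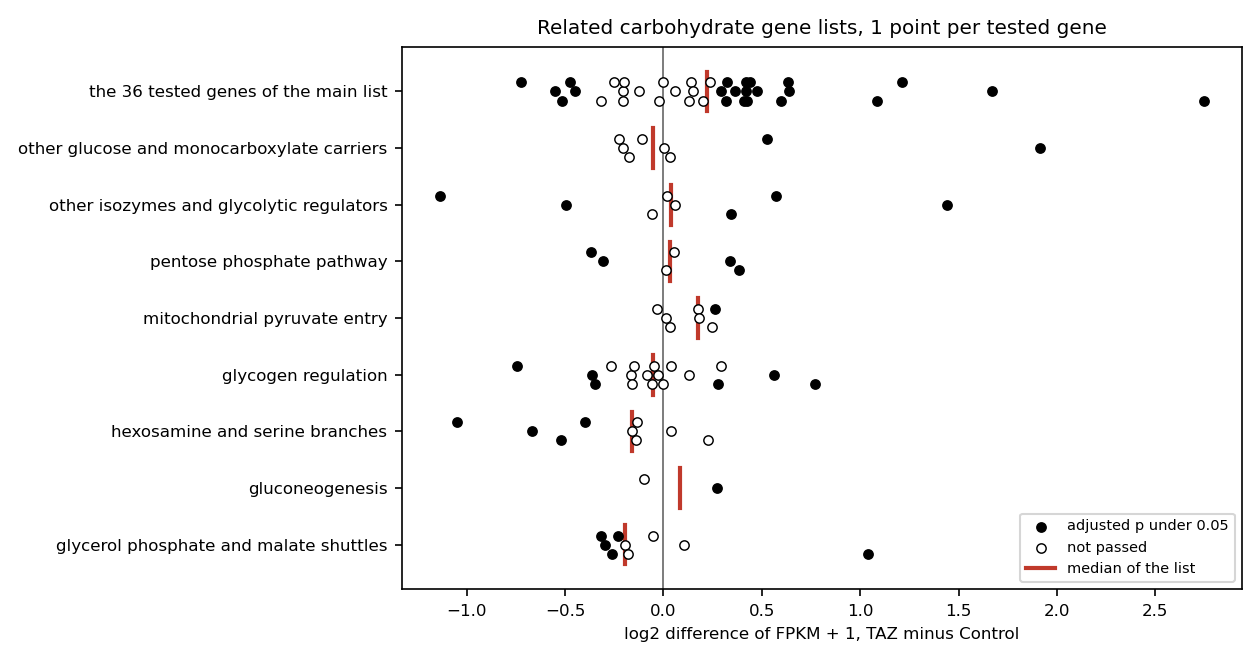
Log2 difference of FPKM + 1, TAZ minus Control, with 1 point per tested gene for the 36 listed genes (top row) and the 8 related lists below it; filled points passed at an adjusted p under 0.05, and red bars are list medians. The median of the 36 genes is 0.22, while the related lists have medians from -0.20 to 0.18, with SLC2A6, TXNIP and GPD2 as the points furthest right among them.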

How the data were processed

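The authors deposited FPKM values (fragments scaled to gene length and library total), per the file headers as 1 column per library, in a table for each group with the same 16285 rows. The submitters' processing notes name fastp, HISAT2 and HTSeq. Not given in the sources used here are their versions, the build, how strand was set and how multi-mapped reads were handled. Therefore close paralogs are uncertain and coordinates are not printed. In 23 rows a date stood in place of the symbol, and these were left out. The other 16262 symbols all matched RefSeq (assembly ARS1.2), used for names only.

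Library totals, gene lengths and fragment numbers were recovered from the steps of the FPKM values, with fragment numbers taken as whole or in steps of 0.5 within 0.02. This gave a length for 99.99% of rows with a value. Where several lengths were possible the smallest was taken. Floors cover counting error only.

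Genes that reached 1 FPKM in 3 or more of the 6 libraries were tested with limma 3.58.1 in R 4.3.3 on log2(FPKM + 1), with no further scaling and no block, which understates the change of low genes. The code was tested on simulated data. Ratios are of mean FPKM with nothing added. Isozyme shares and sums were compared by exact permutation. Groups came from the sample titles. Alternatives were a pseudocount of 0.1, no filter, a mean of 5 FPKM or more, median-ratio scaling, quantile normalization, voom on the recovered fragments with TMM factors, the replicate block and leaving out each library.

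The list of genes, the related lists, the markers and the tests were chosen with earlier results of these data known. Values per library are given for the members of each step with the lowest adjusted p and for isozymes set side by side, and in each related list the up to 3 genes with the lowest adjusted p among those that passed are named. Some genes of the related lists are not reported here and were left out of the counts. SLC2A4, MPC1 and MPC2 were named after their values were seen.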

Additional observations from a re-analysis of the deposited data

How the results depend on the processing

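The number of listed genes that were higher was 17, and 14 to 19 over all alternatives run, and the number lower was 5, and 3 to 7. The 3 lower came from requiring a mean of 5 FPKM or more, since PFKM and PDK1 then were not tested. Leaving out 1 library gave 14 to 18 higher and 5 to 7 lower. The direction and side of the threshold held for 26 of the 36 tested genes under every alternative that tested them (PFKM, PDK1 and PDK3 were not tested with a mean of 5 FPKM or more), and changed under at least 1 for the other 10, PFKP, PFKFB2, ALDOC, GAPDH, PGAM1, ENO1, ENO3, PDK2, PDHA1 and DLAT. Signs turned for genes near 0. PFKP was 0.050 with median-ratio scaling, 0.018 with quantile normalization and 0.055 with voom, ENO3 was 0.029 with median-ratio scaling and 0.035 with voom, and leaving out 1 library gave -0.12 to 0.098 for PFKP, -0.069 to 0.061 for ENO3 and -0.034 to 0.123 for DLAT. The share difference without 1 library ran from -2.04 to 0.0265 percentage points for PFKFB3 and from -0.0290 to 0.0129 for PDK4. Over all tested genes, voom gave 2040 higher and 1782 lower, and leaving out 1 library 1386 to 1878 higher and 1819 to 2518 lower. Every other isozyme share kept its direction under the alternatives run, as did the summed enzymes, which differed by 1350 to 1918 FPKM without 1 library and by 1970 FPKM with median-ratio scaling. With the replicate number as a block 16 listed genes were higher and 6 lower, the change being PGAM1 (limma adjusted p = 0.052) and PFKFB2 (limma adjusted p = 0.043). Over all tested genes the block gave 1548 higher and 1964 lower. The summed enzymes differed by 1628 FPKM as before (exact sign-flip permutation p = 0.25, the smallest 3 pairs can give). Same-numbered libraries did not deviate together (correlations of -0.436, -0.112 and -0.403). Among differently numbered libraries, TAZ replicate 1 with control replicate 3 gave 0.691. TAZ replicate 3 with control replicate 2 gave 0.552, and TAZ replicate 2 with control replicate 1 gave 0.534. The remaining differently numbered pairs gave -0.086, -0.35 and -0.376. Deviations from means of 3 libraries cannot settle whether libraries were paired, and the labels do not say. Depth was least for PDK4, with 6 fragments in the TAZ libraries and 7 in the control libraries, and for ALDOC, with 200.5 in the TAZ libraries and 122 in the control libraries.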
